A study of Mus musculus with 6 samples.

Results

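Expression of 10 genes of the oxygen-sensing pathway was followed: the hypoxia-inducible factor subunits Hif1a, Epas1, Hif3a and Arnt, the prolyl hydroxylases Egln1, Egln2 and Egln3, the asparaginyl hydroxylase Hif1an, the ubiquitin ligase subunit Vhl, and the HIF target Adm. They were matched by gene name, the list having been drawn up with earlier results of these data known, and all 10 were found among the 35275 genes of the deposited table. Their mRNA was measured by RNA sequencing of epididymal fat, a visceral depot, taken from male C57BL/6 mice. The 3 TfrcAKO samples, titled as knockouts, concern Tfrc, the gene of the transferrin receptor through which cells take up iron; the labels neither spell out AKO nor name a Cre driver. The 3 Tfrcfl/fl samples, titled as wild type, carry the floxed gene. All mice of both genotypes ate a diet with 60% fat for 10 weeks from 2 months of age and were 4.5 months old when sampled. Whether the samples are separate animals or pools is not stated, and p-values therefore reflect only how much these 6 libraries vary, which may be technical.

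HIF acts as a dimer of an alpha subunit (HIF-1α from Hif1a, HIF-2α from Epas1, HIF-3α from Hif3a) with ARNT, also called HIF-1β. When oxygen, iron and 2-oxoglutarate are at hand, the EGLN prolyl hydroxylases mark the alpha subunit, the VHL protein binds the marked form, and the subunit is degraded; FIH, the product of Hif1an, hydroxylates an asparagine and blocks the binding of co-activators. These hydroxylases carry iron in their active site, and in adipose tissue the pathway is known for its part in vessel growth, inflammation and fibrosis during obesity. Much of this control acts on protein, which the present data do not measure.

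Values are FPKM, fragments scaled by gene length and by the reads assigned to genes, and the depth was 25252839 to 30650624 reads assigned to genes per sample. At this depth 3 reads on a gene of 2 kb equal 0.0489 to 0.0594 FPKM, with counting error alone considered. Tfrc itself was lower in TfrcAKO tissue, with 7.10, 8.27 and 9.50 FPKM in TfrcAKO replicates 1, 2 and 3, against 11.1, 13.2 and 11.9 FPKM in Tfrcfl/fl replicates 1, 2 and 3 (limma adjusted p = 0.0147). A gene was called where the limma adjusted p was under 0.05, with fold changes on the log2(FPKM + 0.5) scale.

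Of the 10 genes, 9 passed the filter on low values, and 4 of these rose in TfrcAKO tissue: Epas1, Egln1, Egln3 and Adm. None of the 9 was called lower, with 5 of the 9 at an unadjusted p under 0.05 in limma and limma-voom also calling 4 higher and 0 lower. The background is high in this comparison, since 43.5% of the 14383 genes tested were called, 21.9% as higher and 21.6% as lower. At an unadjusted p under 0.05 the share of all genes tested is at least that 43.5%, since adjustment never lowers p. The 6253 calls fell in number when a control was left out, to 3371 (2047 higher and 1324 lower) without Tfrcfl/fl replicate 2 and to 3456 (1897 higher and 1559 lower) without Tfrcfl/fl replicate 3, with 4 of the 9 genes called in both fits. In log2 fold change, the median of the 9 genes was 0.17, against −0.03 for all genes tested. The groups did not overlap for 5 of the 9 genes, against 60.1% of all genes tested. TfrcAKO samples lay above all Tfrcfl/fl samples for those 5, against 29.1% of all genes tested, and below them for 0, against 31.0%. The plot of FPKM by sample shows the 4 called genes and Vhl as those whose groups do not overlap.

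**Figure D1:**
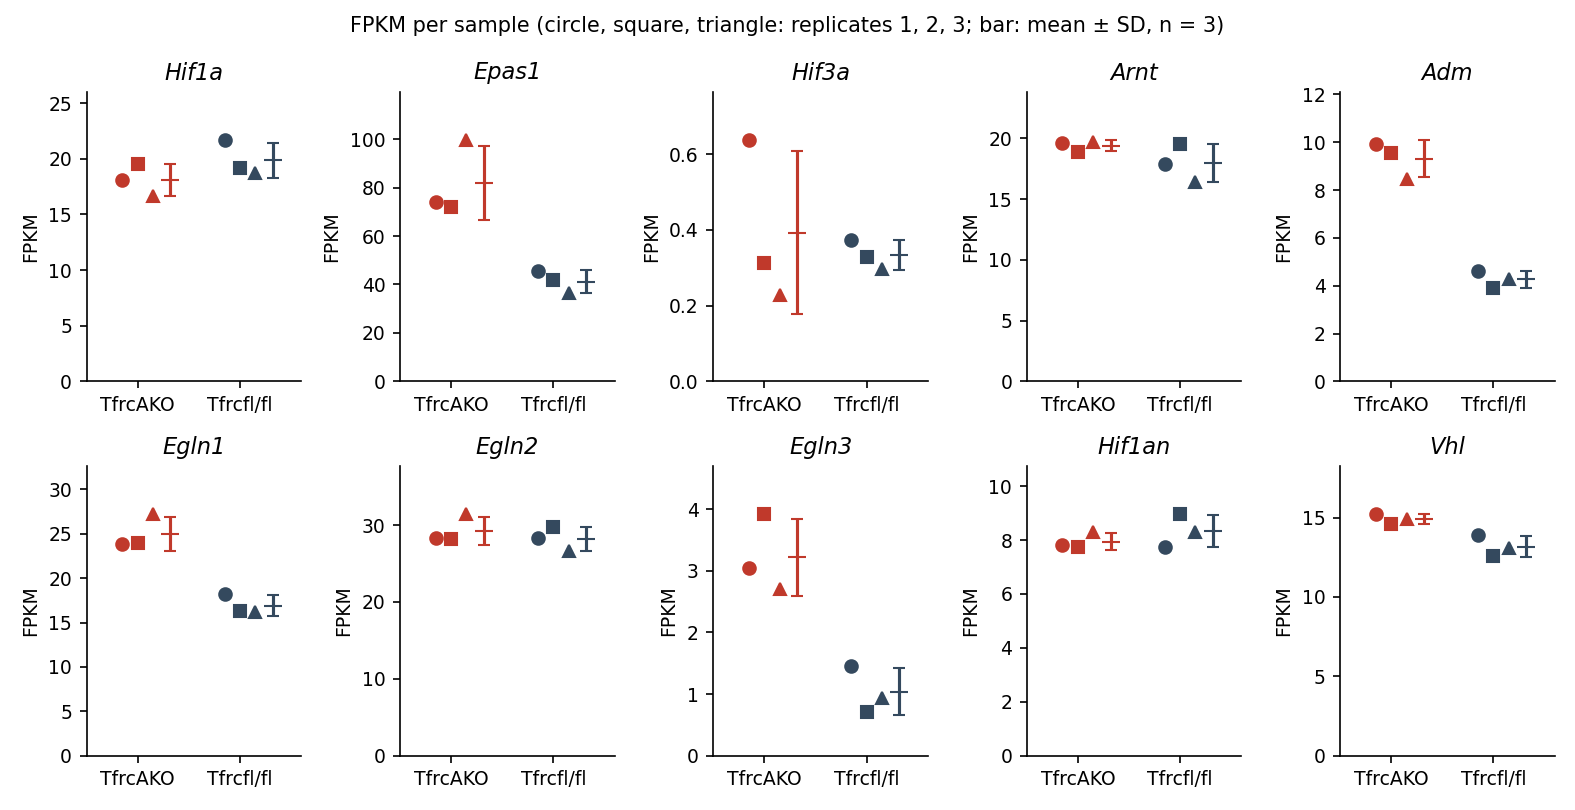
FPKM of the 10 genes in each sample, TfrcAKO on the left and Tfrcfl/fl on the right of each panel; symbols are replicates and bars are the mean ± SD (n = 3 each). Epas1, Egln1, Egln3, Adm and Vhl have groups that do not overlap, while Hif1a, Hif3a, Arnt, Egln2 and Hif1an overlap.

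Epas1, which encodes HIF-2α, rose and was the most abundant of the 10 genes in both genotypes. It had 74.2, 71.8 and 99.5 FPKM in TfrcAKO replicates 1, 2 and 3, against 45.5, 41.8 and 36.3 FPKM in Tfrcfl/fl replicates 1, 2 and 3. The lowest TfrcAKO sample was far above the highest Tfrcfl/fl sample, and TfrcAKO replicate 3 was the highest of all. The means were 81.8 ± 15.4 FPKM in TfrcAKO and 41.2 ± 4.63 FPKM in Tfrcfl/fl tissue (SD, n = 3 each). The log2 fold change was 0.97 ± 0.15 (SE, limma adjusted p = 0.00533) and 0.82 without TfrcAKO replicate 3. The gene (ENSMUSG00000024140) lies on the plus strand of mm10 chromosome 17, from 86753907 to 86833410 in the table.

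Epas1 mRNA is known to carry an iron-responsive element in its 5′ leader, a hairpin to which iron regulatory proteins bind when iron is low and which then holds back translation. The element is shown because it links this gene to iron at a step that mRNA abundance does not report. In the first Epas1 transcript of GENCODE M21 (GRCm38), the leader of 583 bases holds the loop letters CAGTG once. The 30 bases around them lie at chr17:86753769-86753798 on the plus strand, bases 70 to 99 of the transcript, within the 5′ untranslated part of the first exon. They end 109 bases before the start that the table gives for the gene. The capitals mark the hexaloop.
Epas1 iron-responsive element: acaatcctcggCAGTGTcctgagactgtat

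Hif1a, which encodes HIF-1α, was not called and its groups overlapped. Its values were 18.1, 19.5 and 16.7 FPKM in TfrcAKO replicates 1, 2 and 3, against 21.7, 19.2 and 18.8 FPKM in Tfrcfl/fl replicates 1, 2 and 3. TfrcAKO replicate 2 was higher than Tfrcfl/fl replicates 2 and 3. The log2 fold change was −0.13 ± 0.09 (SE, limma adjusted p = 0.271), with a 95% interval of −0.34 to 0.08. In GENCODE M21 the antisense gene Gm15283 shares 330 exonic bases with Hif1a and reached at most 0.281 FPKM. Whether counting used strand is not stated, and without strand such reads cannot be told apart. The protein-coding gene Gm49321 shares 148 exonic bases with Hif1a on the same strand and has no values in these data. Reads on those bases cannot be told apart even with strand.

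Hif3a, which encodes an alpha subunit known in several splice forms, some of which inhibit the others, was barely detected. It had 0.637, 0.314 and 0.229 FPKM in TfrcAKO replicates 1, 2 and 3, against 0.375, 0.330 and 0.297 FPKM in Tfrcfl/fl replicates 1, 2 and 3. These values rest on 37 to 125 reads in TfrcAKO and 55 to 70 reads in Tfrcfl/fl samples, and the groups overlapped. Only TfrcAKO replicate 1 reached 0.5 FPKM, so Hif3a did not enter the test; without the filter its log2 fold change was 0.07 ± 0.18 (SE, limma adjusted p = 0.804).

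Arnt, the partner shared by all alpha subunits, had 19.6, 18.9 and 19.7 FPKM in TfrcAKO replicates 1, 2 and 3, against 17.9, 19.6 and 16.4 FPKM in Tfrcfl/fl replicates 1, 2 and 3. Its groups overlapped through Tfrcfl/fl replicate 2. The log2 fold change was 0.11 ± 0.08 (SE, limma adjusted p = 0.291), with a 95% interval of −0.08 to 0.30.

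The make-up of the alpha subunit mRNAs thus differed between the genotypes in every sample. Epas1 made up 79.9%, 78.3% and 85.5% of the summed FPKM of Hif1a, Epas1 and Hif3a in TfrcAKO replicates 1, 2 and 3, against 67.4%, 68.2% and 65.6% in Tfrcfl/fl replicates 1, 2 and 3. The ratio of Epas1 to Hif1a, per length, was 3.68 to 5.96 in TfrcAKO and 1.94 to 2.18 in Tfrcfl/fl tissue. Summed alpha FPKM over Arnt FPKM was 4.73 to 5.90 in TfrcAKO and 3.13 to 3.77 in Tfrcfl/fl tissue. The stacked plot of subunit sums shows that the larger sum in TfrcAKO samples comes from the Epas1 segment. No test was made on these ratios, because they were formed from genes chosen with earlier results known.

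**Figure D2:**
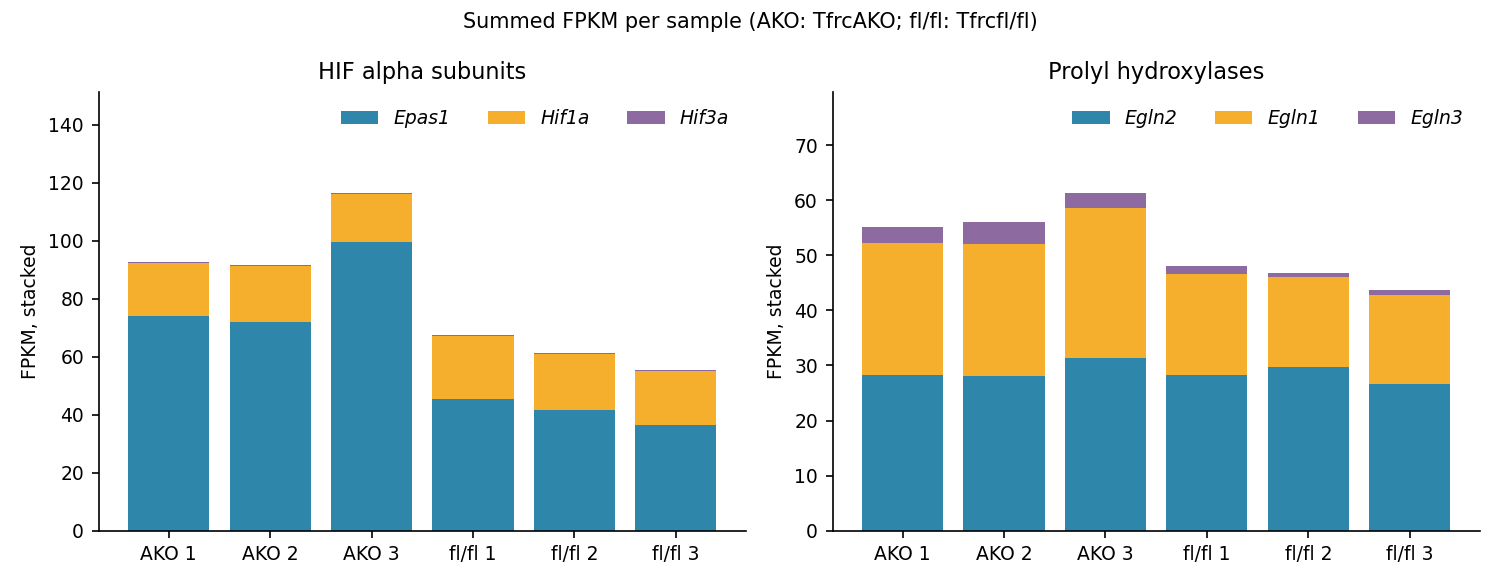
Stacked FPKM per sample of the HIF alpha subunits (left) and the prolyl hydroxylases (right), with the 3 TfrcAKO samples before the 3 Tfrcfl/fl samples. Epas1 is 78.3% to 85.5% of the alpha sum in TfrcAKO and 65.6% to 68.2% in Tfrcfl/fl samples, and the Egln1 and Egln3 segments are larger in TfrcAKO samples.

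Among the prolyl hydroxylases, Egln1 and Egln3 rose and Egln2 was not called. Egln1 encodes PHD2, known as the main oxygen sensor of the family. It had 23.9, 23.9 and 27.2 FPKM in TfrcAKO replicates 1, 2 and 3, against 18.3, 16.3 and 16.1 FPKM in Tfrcfl/fl replicates 1, 2 and 3. All TfrcAKO samples were above all Tfrcfl/fl samples, with means of 25.0 ± 1.90 FPKM in TfrcAKO and 16.9 ± 1.18 FPKM in Tfrcfl/fl tissue (SD, n = 3 each). Egln1 was higher by 0.55 ± 0.09 on the log2 scale (SE, limma adjusted p = 0.00535).

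Egln3 encodes PHD3, whose gene is itself a known HIF target. It had 3.04, 3.91 and 2.71 FPKM in TfrcAKO replicates 1, 2 and 3, against 1.46, 0.707 and 0.943 FPKM in Tfrcfl/fl replicates 1, 2 and 3. The groups were apart, and the values rest on 182 to 275 reads in TfrcAKO and 49 to 113 reads in Tfrcfl/fl samples. The means were 3.22 ± 0.623 FPKM in TfrcAKO and 1.03 ± 0.383 FPKM in Tfrcfl/fl tissue (SD, n = 3 each). On the log2 scale Egln3 was higher by 1.29 ± 0.21 (SE, limma adjusted p = 0.00592). The pseudocount understates the change of so low a gene, and limma-voom on the recovered reads gave 1.66.

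Egln2 encodes PHD1 and had 28.3, 28.2 and 31.4 FPKM in TfrcAKO replicates 1, 2 and 3, against 28.3, 29.7 and 26.6 FPKM in Tfrcfl/fl replicates 1, 2 and 3. The groups overlapped, and on the log2 scale the difference was 0.05 ± 0.08 (SE, limma adjusted p = 0.605), with a 95% interval of −0.13 to 0.24. Egln2 was the most abundant prolyl hydroxylase mRNA in every sample. Its share of the summed Egln FPKM was 50.3% to 51.3% in TfrcAKO and 58.9% to 63.5% in Tfrcfl/fl tissue. Egln1 held 42.7% to 44.4% in TfrcAKO and 35.0% to 38.0% in Tfrcfl/fl tissue, and Egln3 held 4.42% to 6.99% in TfrcAKO and 1.51% to 3.03% in Tfrcfl/fl tissue. Neither of these share ranges, nor that of Egln2, overlapped between the genotypes. The shares are parts of the same sum and restate the rise of Egln1 and Egln3, and no test was made on them.

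Hif1an had 7.80, 7.73 and 8.30 FPKM in TfrcAKO replicates 1, 2 and 3, against 7.75, 8.95 and 8.31 FPKM in Tfrcfl/fl replicates 1, 2 and 3. These groups overlapped, and the difference on the log2 scale was −0.06 ± 0.08 (SE, limma adjusted p = 0.541), with a 95% interval of −0.25 to 0.13. Vhl had 15.2, 14.6 and 14.9 FPKM in TfrcAKO replicates 1, 2 and 3, against 13.9, 12.6 and 13.1 FPKM in Tfrcfl/fl replicates 1, 2 and 3. All TfrcAKO samples were above all Tfrcfl/fl samples for Vhl, but its log2 fold change of 0.17 ± 0.07 (SE) was not called (limma adjusted p = 0.0763), with a 95% interval of 0.01 to 0.33 before adjustment.

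Adm encodes adrenomedullin, a secreted peptide that widens vessels and acts on endothelium, and its gene is a known HIF target. It had 9.93, 9.57 and 8.46 FPKM in TfrcAKO replicates 1, 2 and 3, against 4.61, 3.89 and 4.30 FPKM in Tfrcfl/fl replicates 1, 2 and 3. Every TfrcAKO sample was far above every Tfrcfl/fl sample, and TfrcAKO replicate 3 was the lowest of its group, unlike for Epas1 and Egln1. The means were 9.32 ± 0.764 FPKM in TfrcAKO and 4.27 ± 0.359 FPKM in Tfrcfl/fl tissue (SD, n = 3 each). Adm was higher by 1.04 ± 0.10 on the log2 scale (SE, limma adjusted p = 0.00343). Among the 10 genes it had the smallest p.

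In the mm10 positions that the table gives, the other genes lie as follows. Hif1a (ENSMUSG00000021109) spans chr12:73901375-73947530, Arnt (ENSMUSG00000015522) chr3:95434388-95497240, Vhl (ENSMUSG00000033933) chr6:113623959-113631633, Hif1an (ENSMUSG00000036450) chr19:44562850-44576274 and Adm (ENSMUSG00000030790) chr7:110627661-110629820, all on the plus strand. Hif3a (ENSMUSG00000004328) spans chr7:17031507-17062427, Egln1 (ENSMUSG00000031987) chr8:124908596-124949254, Egln2 (ENSMUSG00000058709) chr7:27158658-27166802 and Egln3 (ENSMUSG00000035105) chr12:54178981-54203860, all on the minus strand. Egln2 shares 11 exonic bases with the antisense gene Cyp2t4, which reached at most 0.755 FPKM.

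The order of levels, which FPKM allows because it is per length, was led by Epas1 and then Egln2 in both genotypes and ended with Egln3 and Hif3a in both. In TfrcAKO tissue Egln1 came next after Egln2, followed by Arnt and Hif1a, whose ranges overlapped, and then by Vhl, Adm and Hif1an. In Tfrcfl/fl tissue Hif1a, Arnt and Egln1 followed Egln2, with overlapping ranges between Hif1a and Arnt and between Arnt and Egln1, and then came Vhl, Hif1an and Adm. Adm thus stood above Hif1an in TfrcAKO and below it in Tfrcfl/fl samples. Mean Epas1 FPKM exceeded that of 94.5% of the tested genes in TfrcAKO and 88.6% in Tfrcfl/fl tissue. For Egln3 these shares were 31.0% in TfrcAKO and 12.3% in Tfrcfl/fl tissue.

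The promoters of the called genes are shown because Adm and Egln3 are known HIF targets and rose together with Egln1. HIF dimers bind a core that reads ACGTG or GCGTG. Both cores were searched on both strands in the 300 bases around the start that RefSeq gives, of which the last 50 lie downstream of it (GRCm38.p6). A sequence was found for 9 of the 10 genes, not for Epas1, and 7 of these held at least 1 core. Of 32851 promoters of that length 43.8% held a core, which was the first form in 19.6% and the second in 32.4%. These shares are per promoter and not matched for base composition, while a gene counted if any of its promoters held a core. The first form is also part of the E-box CACGTG, present in 7.15% of promoters but in none of those printed here. Capitals mark the cores.
Egln1, chr8:124949205-124949504, minus strand: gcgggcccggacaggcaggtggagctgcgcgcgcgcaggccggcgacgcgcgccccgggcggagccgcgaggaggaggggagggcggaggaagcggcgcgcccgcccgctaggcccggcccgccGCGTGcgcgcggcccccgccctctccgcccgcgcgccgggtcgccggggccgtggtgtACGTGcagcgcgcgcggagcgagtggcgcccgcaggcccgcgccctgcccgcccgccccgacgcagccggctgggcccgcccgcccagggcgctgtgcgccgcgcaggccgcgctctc
Egln3, chr12:54203825-54204124, minus strand: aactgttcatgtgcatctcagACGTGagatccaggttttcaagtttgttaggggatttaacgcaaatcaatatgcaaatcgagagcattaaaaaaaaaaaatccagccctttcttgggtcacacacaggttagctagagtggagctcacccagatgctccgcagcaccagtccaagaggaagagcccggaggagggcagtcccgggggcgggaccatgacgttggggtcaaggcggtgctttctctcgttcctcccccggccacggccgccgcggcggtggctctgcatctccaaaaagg
Adm, chr7:110627407-110627706, plus strand: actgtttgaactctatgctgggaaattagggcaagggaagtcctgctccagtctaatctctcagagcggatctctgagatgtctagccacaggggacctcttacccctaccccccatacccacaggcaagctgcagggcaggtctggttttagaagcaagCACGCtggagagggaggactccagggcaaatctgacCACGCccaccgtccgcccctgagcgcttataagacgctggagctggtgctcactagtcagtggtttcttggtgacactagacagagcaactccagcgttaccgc

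The Egln1 promoter held GCGTG at −126 and ACGTG at −68 from the start, the Egln3 promoter ACGTG at −229, and the Adm promoter GCGTG at −90 and −54 on the opposite strand, where it reads CACGC. Genes that were not called held cores too. Egln2 had 6 matches in the promoter of its upstream start and 1 in that of a downstream start, and Hif1a had 3 matches. In each of these genes 2 of the matches are the opposite strands of a single E-box CACGTG, and so mark 1 place. Neither Vhl nor Hif1an held a core in this window. A match is a description of the letters and shows no binding.

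The receptor side of adrenomedullin moved in both directions, in a comparison where 21.9% of all genes tested rose and 21.6% fell. Of 8 genes for the receptor, related peptides and binding, 6 were tested, of which 2 rose and 1 fell (median log2 fold change −0.23). The median was 0.00 without TfrcAKO replicate 3 and −0.04 without the filter on low values, and 2 genes were called lower without TfrcAKO replicate 1 or TfrcAKO replicate 3. Ramp2, the co-receptor that makes the calcitonin receptor-like receptor respond to adrenomedullin, had 41.1, 33.7 and 40.7 FPKM in TfrcAKO replicates 1, 2 and 3, against 20.8, 22.6 and 17.5 FPKM in Tfrcfl/fl replicates 1, 2 and 3. Its log2 fold change was 0.91 ± 0.12 (SE, limma adjusted p = 0.00411). Calcrl, the receptor itself, went the other way, with 5.82, 6.25 and 4.23 FPKM in TfrcAKO replicates 1, 2 and 3, against 10.2, 10.6 and 9.80 FPKM in Tfrcfl/fl replicates 1, 2 and 3. It fell by 0.87 ± 0.14 on the log2 scale (SE, limma adjusted p = 0.00575). Ackr3, an atypical receptor that takes up adrenomedullin, rose by 0.41 ± 0.10 (SE, limma adjusted p = 0.0159), but its adjusted p was 0.0603 without Tfrcfl/fl replicate 2.

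Among 17 tested partners and regulators of HIF, 1 rose and 3 fell, against 21.9% and 21.6% of all genes tested. The median log2 fold change was 0.01, and −0.11 without TfrcAKO replicate 2. Cited2, a HIF-induced protein that competes with HIF for its co-activators, rose by 0.48 ± 0.15 (SE, limma adjusted p = 0.0361). The co-activator Ep300 fell by 0.30 ± 0.09, Rack1 (Gnb2l1 in the table), which promotes HIF-1α turnover, fell by 0.48 ± 0.14, and Arntl, a clock factor related to Arnt, fell by 0.99 ± 0.28 (SE, limma adjusted p = 0.0278, 0.0287 and 0.0295). Each of these 4 calls was lost when any single Tfrcfl/fl replicate was left out, and that of Arntl also without TfrcAKO replicate 2. Over the fits that left out 1 sample, the limma adjusted p reached 0.0976, 0.0932, 0.0964 and 0.114 for Ep300, Rack1, Arntl and Cited2. The subunits of the VHL ligase, Elob, Eloc, Cul2 and Rbx1, had log2 fold changes of 0.04, 0.03, 0.01 and −0.12 and were not called.

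Known HIF targets of glucose metabolism moved in both directions: of 16 tested, 5 rose and 5 fell, against 21.9% and 21.6% of all genes tested. Their median log2 fold change was 0.19. Pfkl, a phosphofructokinase, had 46.3, 51.0 and 52.7 FPKM in TfrcAKO replicates 1, 2 and 3, against 32.0, 26.4 and 28.4 FPKM in Tfrcfl/fl replicates 1, 2 and 3, and rose by 0.78 ± 0.09 on the log2 scale (SE, limma adjusted p = 0.00372). Hk2, Pfkfb3, Tpi1 and Ldha were also higher, by 1.06, 1.56, 0.41 and 0.42. The glucose transporter Slc2a1 had 8.07, 7.72 and 6.36 FPKM in TfrcAKO replicates 1, 2 and 3, against 12.3, 18.6 and 15.5 FPKM in Tfrcfl/fl replicates 1, 2 and 3, and fell by 1.01 ± 0.16 (SE, limma adjusted p = 0.00559). Slc16a3, the lactate exporter, fell by 1.42 ± 0.22 and Pfkfb4, a regulator of glycolytic flux, by 0.98 ± 0.18 (SE, limma adjusted p = 0.00543 and 0.00845). Gpi1 and Pgk1 completed the genes called lower. The number higher was 3 without TfrcAKO replicate 2, Tfrcfl/fl replicate 2 or Tfrcfl/fl replicate 3, and the number lower was 3 without Tfrcfl/fl replicate 2. There were 7 higher and 4 lower without TfrcAKO replicate 3, and 7 and 5 with limma-voom, and the median was 0.07 without TfrcAKO replicate 3 and 0.29 without TfrcAKO replicate 1.

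The other HIF targets moved both ways as well, with 13 of 25 higher and 5 lower, against 21.9% and 21.6% of all genes tested. Their median log2 fold change was 0.34. Vegfa, the vascular growth factor, had 86.6, 71.9 and 120 FPKM in TfrcAKO replicates 1, 2 and 3, against 23.9, 17.7 and 16.9 FPKM in Tfrcfl/fl replicates 1, 2 and 3, and rose by 2.21 ± 0.21 on the log2 scale (SE, limma adjusted p = 0.00357). Stc2, a secreted glycoprotein, rose by 1.48 ± 0.19, Bnip3, a mitophagy receptor, by 1.38 ± 0.17 and Higd1a, a mitochondrial protein, by 0.65 ± 0.07 (SE, limma adjusted p = 0.00398, 0.0039 and 0.00366). The remaining genes called higher were Edn1, Ddit4, Angptl4, Fam162a, Ndrg1, Cox4i2, Tgfa, Kdm4b and Ero1l, with log2 fold changes of 0.33 to 0.83. Those called lower were Hilpda, Car9, Plod2, Ankrd37 and Mxi1, with log2 fold changes of −1.45, −0.91, −0.80, −0.66 and −0.53. Tgfa and Ankrd37 reached 0.5 FPKM only in the group where each was high, so they passed the filter through that group alone. With the filter at 1 FPKM in 3 samples, 12 of these targets were called higher and 4 lower. The number higher was 6, 7 and 7 and the number lower 3 in each case without Tfrcfl/fl replicates 1, 2 and 3. Vegfa, Stc2, Bnip3, Higd1a, Pfkl, Slc2a1, Slc16a3 and Pfkfb4 stayed called in each of the 6 fits that left out 1 sample.

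**Figure D3:**
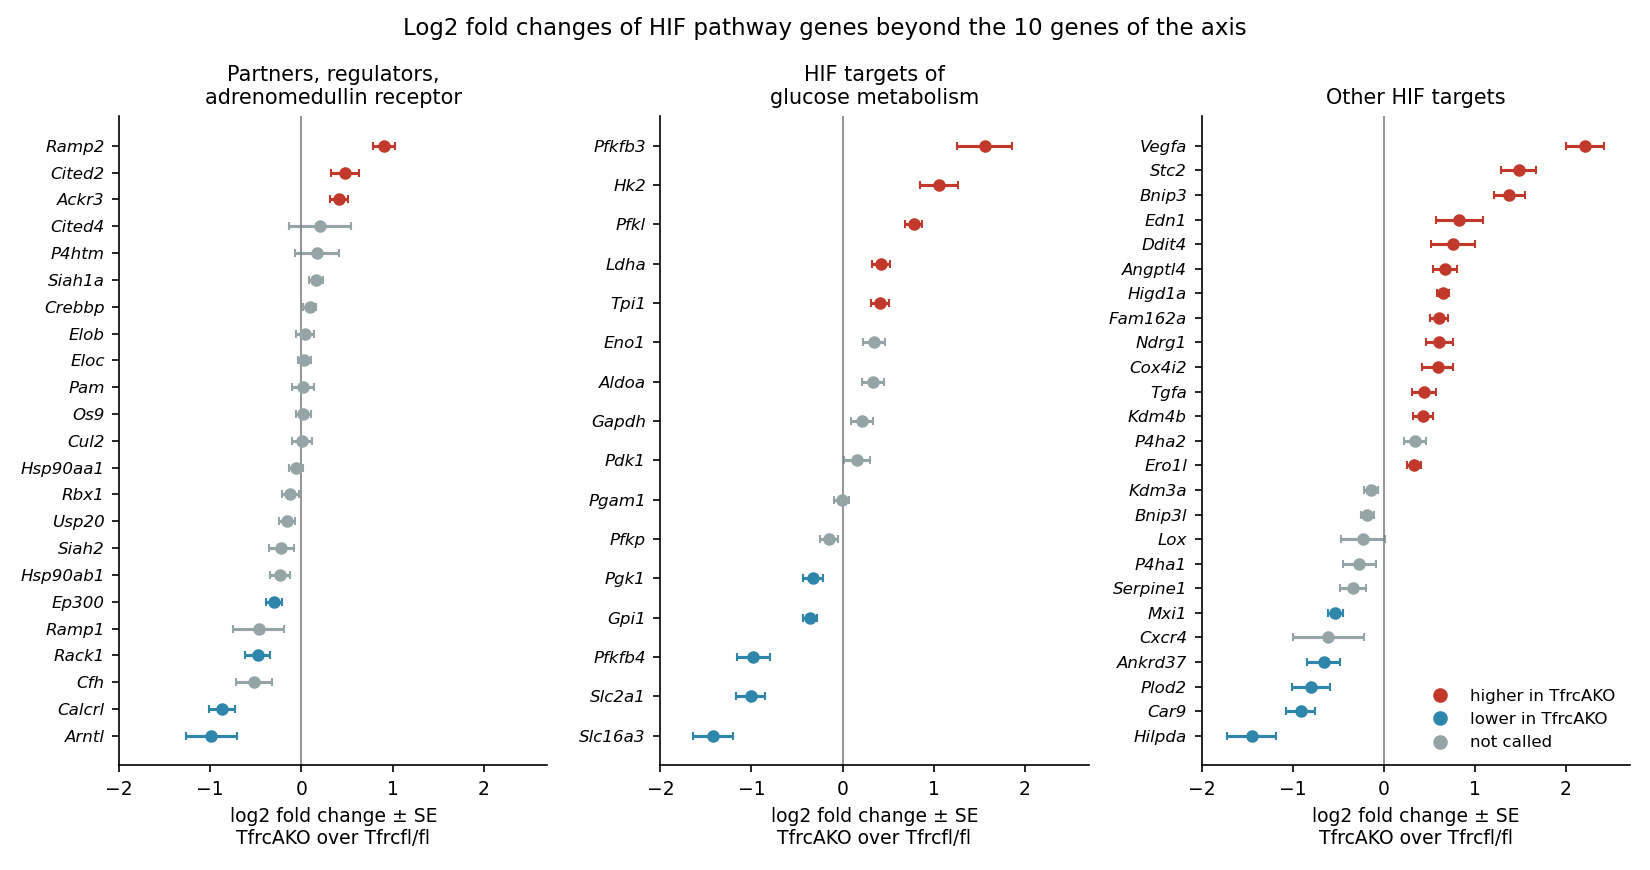
Log2 fold changes (TfrcAKO over Tfrcfl/fl, limma, ± SE) of tested genes around the HIF axis, one row per gene, in 3 panels of lists. The HIF target panels hold genes called in both directions, from Vegfa at 2.21 to Hilpda at −1.45.

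Marker genes of several cell types moved in the same samples, and in whole tissue a change in the number of cells of a type and a change in RNA per cell cannot be told apart. Over all genes tested, 21.9% were called higher and 21.6% lower. Of 14 endothelial markers all 14 were higher in TfrcAKO tissue, with a median log2 fold change of 1.08 and a summed level of 369 to 539 FPKM in TfrcAKO and 184 to 210 FPKM in Tfrcfl/fl samples. Of 18 mature adipocyte markers 17 were higher (median 1.52), with a summed level of 25830 to 38390 FPKM in TfrcAKO and 9749 to 13810 FPKM in Tfrcfl/fl samples. Of 18 macrophage markers 14 were lower and 0 higher (median −1.17), with a summed level of 1610 to 3634 FPKM in TfrcAKO and 6534 to 7556 FPKM in Tfrcfl/fl samples. No marker of these 3 lists was at 0 in all samples. The endothelial genes with the smallest p were Ptprb, Robo4, Cldn5 and Egfl7, with log2 fold changes of 1.23, 1.52, 1.62 and 1.35, and the adipocyte genes were Aqp7, Adrb3, Cidec and Adipoq, at 1.57, 3.27, 1.47 and 1.93. For macrophages they were Aif1, Itgam, Mrc1 and Lyz2, at −0.95, −1.80, −1.30 and −1.56, all 4 called in each fit that left out 1 sample. The macrophage markers called lower numbered 4 without Tfrcfl/fl replicate 2 and 7 without Tfrcfl/fl replicate 3. Not called were Fcgr1, Cd163, Timd4 and Lyve1, at −0.80, 0.02, 0.34 and 0.45. Without TfrcAKO replicate 3, 1 macrophage marker was called higher. Pericyte and smooth muscle markers were higher in 8 of 10 cases (212.5 to 278 FPKM summed in TfrcAKO, 118.5 to 135 in Tfrcfl/fl), mesothelial markers in 7 of 8 (116 to 135 FPKM in TfrcAKO, 71.1 to 75.0 in Tfrcfl/fl) and blood markers in 5 of 5 (1468 to 2006 FPKM in TfrcAKO, 517.5 to 912 in Tfrcfl/fl). None of the 8 markers of epididymal epithelium passed the filter, so none was tested. Lcn8 had 1.40, 0.233 and 0 FPKM in TfrcAKO replicates 1, 2 and 3, against 0.0527, 0 and 0 FPKM in Tfrcfl/fl replicates 1, 2 and 3, and Lcn9 had 0.389 FPKM in TfrcAKO replicate 1 and was listed at 0 in the other 5 samples. The 8 markers summed to at most 2.27 FPKM in TfrcAKO and 0.0953 FPKM in Tfrcfl/fl samples, and Lcn5 was at 0 in all. Without TfrcAKO replicate 1, Epas1, Egln1, Egln3 and Adm were still called, at 1.03, 0.58, 1.32 and 1.00 on the log2 scale. That fit keeps TfrcAKO replicate 2, where Lcn8, Adam7 and Cst8 had 0.233, 0.131 and 0.141 FPKM. Whether epididymal tissue added to the values of the called genes was not tested.

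Set against these markers, the 4 called genes behaved differently from one another. The log2 level of Epas1 minus the mean of the endothelial markers was 1.58, 1.78 and 1.75 in TfrcAKO replicates 1, 2 and 3, against 1.92, 1.80 and 1.77 in Tfrcfl/fl replicates 1, 2 and 3. The Epas1 groups overlapped on this scale, because TfrcAKO replicate 2 was just above Tfrcfl/fl replicate 3. For Adm the same difference was −1.26, −1.07 and −1.73 in TfrcAKO and −1.25, −1.47 and −1.17 in Tfrcfl/fl replicates 1, 2 and 3, and the groups overlapped. Egln3 overlapped too, at −3.22 to −2.26 in TfrcAKO and −3.33 to −2.64 in Tfrcfl/fl samples. Egln1 was lower relative to endothelial markers, at −0.11 to 0.21 in TfrcAKO and 0.47 to 0.63 in Tfrcfl/fl samples.

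Relative to the adipocyte markers, Epas1 was at −2.88 to −2.56 in TfrcAKO and −2.19 to −1.83 in Tfrcfl/fl samples, and Egln1 at −4.74 to −4.17 in TfrcAKO and −3.48 to −3.15 in Tfrcfl/fl samples, both lower in TfrcAKO without overlap. Adm was lower in the same way, at −6.36 to −5.40 in TfrcAKO and −5.36 to −4.99 in Tfrcfl/fl samples. Egln3 overlapped, at −7.85 to −6.71 in TfrcAKO and −6.96 to −6.73 in Tfrcfl/fl samples. Relative to the macrophage markers, which fell, all 4 genes were higher in each TfrcAKO sample, a direction that follows from choosing genes called higher. An unchanged gene would also lie higher on the macrophage scale, and lower on the endothelial and adipocyte scales. The plot relative to marker means shows these patterns. Which cells made these mRNAs was not tested.

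**Figure D4:**
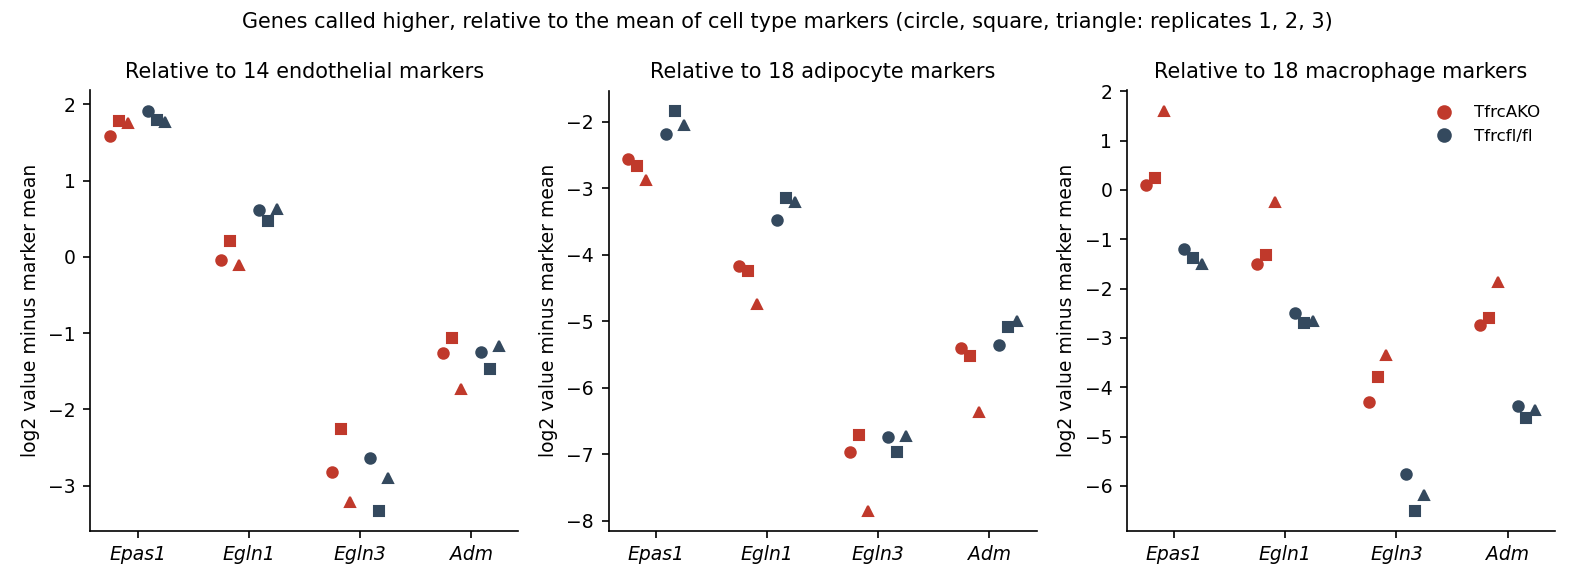
Log2(FPKM + 0.5) of Epas1, Egln1, Egln3 and Adm minus the mean of the same quantity over endothelial, adipocyte or macrophage markers, per sample, TfrcAKO in red to the left of Tfrcfl/fl in dark blue. Epas1 overlaps between genotypes relative to endothelial markers (1.58 to 1.78 in TfrcAKO, 1.77 to 1.92 in Tfrcfl/fl) and is lower in TfrcAKO relative to adipocyte markers.

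The calls on the 10 genes did not turn on a single sample or setting. Under each of 14 alternatives the same 4 genes were called higher and the other 5 were not called. The log2 fold change of Epas1 ranged from 0.82 to 1.06, that of Egln1 from 0.46 to 0.60, that of Egln3 from 1.06 to 1.66 and that of Adm from 0.97 to 1.13. The highest limma adjusted p of these genes was 0.0288, 0.0307, 0.0311 and 0.0255 in that order. Vhl came closest among the others, with an adjusted p between 0.0714 and 0.216.

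**Figure D5:**
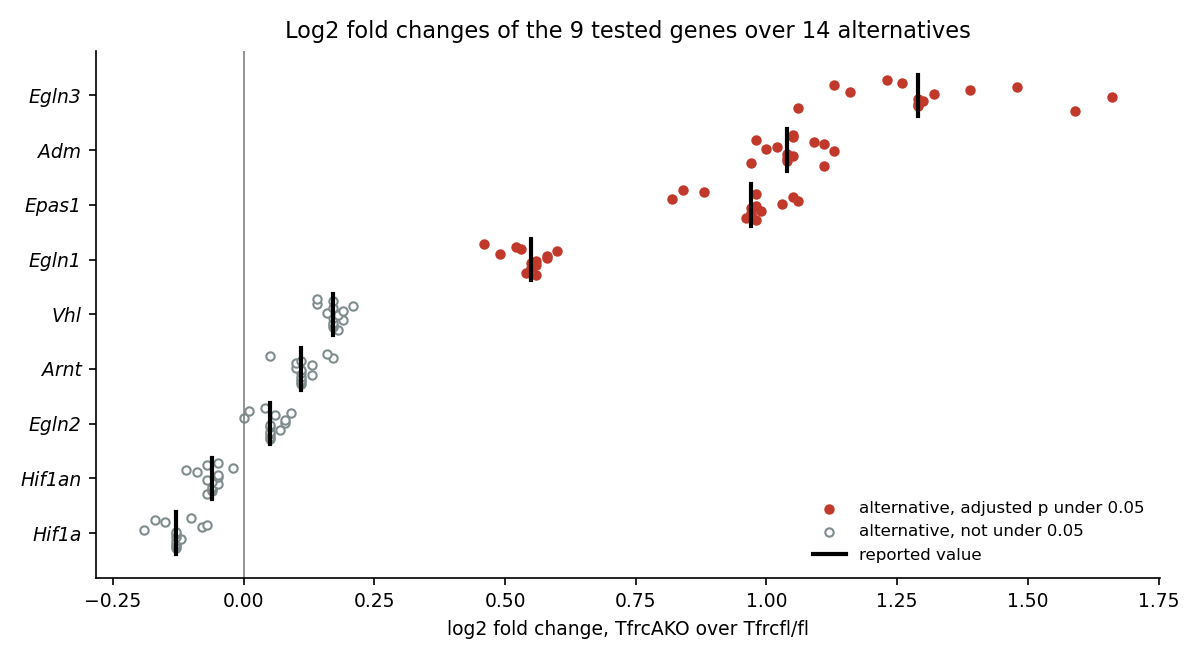
Log2 fold changes (TfrcAKO over Tfrcfl/fl) of the 9 tested genes under 14 alternatives (points, filled where the adjusted p was under 0.05) beside the reported value (bar). Points of Egln3, Adm, Epas1 and Egln1 are all filled, and those of Vhl, Arnt, Egln2, Hif1an and Hif1a are all open.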

How the data were processed

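Per the labels' protocols, Trizol RNA from the fat depot was made into NEBNext Ultra libraries. CASAVA, FastQC, STAR 2.5, HTSeq 0.6.1 and the build mm10 are named in the submitters' processing notes; those notes as used here state no strand setting, annotation or filter. The authors deposited FPKM per gene and sample, per the file headers. FPKM times length in kb summed to 1000000 per sample, and every value above 0 was a whole multiple of 1 read (within 0.01), which gave the reads per gene. Replicates differed beyond counting noise (chi-square per degree of freedom 15.5 to 98.1), so none was taken for the same library sequenced again. Whether any are technical repeats of the same RNA cannot be told from this.

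Genes with at least 0.5 FPKM in 3 samples were tested with limma 3.58.1 (R 4.3.3; trend and robust moderation, genotype only, two-sided, Benjamini-Hochberg adjustment) on log2(FPKM + 0.5). The 14 alternatives were other pseudocounts, filters and scalings, a replicate block, limma-voom on the reads, and samples left out. On simulated data of the same layout (14230 genes tested, 200 changed), limma recovered 14% of genes changed 1.5-fold, 82% at 2-fold and 100% at 4-fold, and called 10 unchanged genes. Far fewer genes changed in the simulation than were called in the real comparison, where 43.5% of the 14383 tested genes were. The simulated rates and number of false calls may therefore not hold for these data. Whether simulated replicates vary as the real ones do was not tested. The genes and lists were chosen with earlier results of these data known. From each list the text names the called genes of lowest p, at most 4. From a list with no call it names the 2 genes of highest level. Where more are named, all called members are given or the complex is named as a whole. For macrophages and neutrophils the tested markers not called are given as well. Of the epididymal list, Lcn5, Adam7 and Cst8 are named besides. Of 200 list entries all 200 were found, 4 under an older symbol (Elob, Eloc, Rack1 and Adgre1). Lists of lymphocyte, neutrophil, mast cell, fibroblast and nerve markers were also measured; their counts are in the closing section.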

Additional observations from a re-analysis of the deposited data

How the results depend on the processing

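Under all 14 alternatives 4 of the 10 genes were called, all higher in TfrcAKO tissue. The count over all genes, 6253, lay between 3371 (2047 higher and 1324 lower, without Tfrcfl/fl replicate 2) and 5958 with 1 sample left out; it was 3456 without Tfrcfl/fl replicate 3. Without both TfrcAKO replicate 3 and Tfrcfl/fl replicate 2 it was 4665, and with other pseudocounts, filters, median-of-ratios scaling or limma-voom between 5347 and 6416. Whether equal replicate numbers mark pairs is not stated. The deviations from the group means of samples with the same number correlated at −0.237, 0.0305 and −0.179. With 3 samples a group such deviations must cancel within a group, so they cannot settle pairing. With the replicate block 4 of the 10 genes and 4581 genes in all were called. The numbers higher and lower among HIF targets of glucose metabolism were then 3 and 3. Without a filter, 0 of the HIF partners and regulators were called higher and 0 lower in limma. Depth limits Hif3a and Egln3 most, and 3 samples a group limit every test.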

Other observations

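Markers of other cells were measured in the same fit, in which 21.9% of all genes tested were called higher and 21.6% lower. Of 6 tested mast cell markers 5 were lower in TfrcAKO tissue (median −1.98), with a summed level of 37.6 to 81.0 FPKM in TfrcAKO and 189 to 416 FPKM in Tfrcfl/fl samples; Fcer1a, Cpa3, Cma1 and Mcpt4 had log2 fold changes of −1.97, −1.92, −2.14 and −1.99. Of 10 progenitor and fibroblast markers 2 were lower, Col3a1 and Col1a1, at −0.96 and −0.89. Each call was lost when any single Tfrcfl/fl replicate was left out, and that of Col1a1 also without TfrcAKO replicate 2. Without TfrcAKO replicate 3, 4 of these markers were lower and 1 higher. Of 9 tested B and T cell markers 0 were called by limma (1 at an unadjusted p under 0.05), against 1 lower by limma-voom and 6 lower without TfrcAKO replicate 1; Cd79a and Cd79b, the most abundant, had log2 fold changes of −0.95 and −0.57. Of 3 tested neutrophil markers 2 were lower, Csf3r and S100a9, both at −0.49. With any single Tfrcfl/fl replicate left out, 0 were called lower. S100a8, the most abundant of the 3, was not called, with a log2 fold change of 0.03 (limma adjusted p = 0.905). Of 2 tested Schwann cell and nerve markers S100b was higher by 0.60, a call that 4 of 6 fits with 1 sample left out did not make, and Mbp lower, at −0.45. Among pericyte and smooth muscle markers Acta2, Rgs5, Abcc9 and Tagln had log2 fold changes of 1.33, 1.53, 1.23 and 0.69, among mesothelial markers Msln, Upk3b, Lrrn4 and Krt19 had 0.75, 0.80, 0.54 and 0.78, and among blood markers Hbb-bt, Hba-a2, Alas2 and Hbb-bs had 1.41, 1.49, 1.12 and 1.26.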
